A study of Mus musculus with 8 samples.

Results

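The genes described here encode the MYC and MAX network of transcription factors in activated mouse CD8+ T cells. They are Myc, Max, the MXD-type repressor genes Mxd1, Mxd3, Mxd4 and Mxi1, Mnt, Mlx, Mlxip and the network's target gene Txnip. They were chosen by gene symbol, and all 10 were found among the 49490 genes of a knockout table and the 55291 genes of an IL-2 blockade table. Polyadenylated RNA of CD8+ T cells from spleens and lymph nodes was sequenced in 2 experiments with separate controls. In the first, cells activated in vitro that were Trim28-/- (labelled TRIM28 knockout) were set against Trim28fl/fl control cells (labelled WT), which carry the floxed but intact gene of the co-repressor TRIM28. In the second, WT cells stimulated for 3 days through CD3 and CD28 were either left otherwise untreated or given an antibody against IL-2, the growth factor that T cells secrete and respond to. Every group had 2 libraries. The sample labels list both blocked libraries as treated with the antibody against IL-2, but one of their column names ends in an added letter r, which could stand for a replicate or for the IL-2 receptor. If it stands for the receptor, the blockade means and errors below span 2 different antibodies. With that library left out, or the other blocked one, 7 of the 10 members were again called lower. All 4 groups were activated, so there was no resting group, and the Cre driver, the activation time of the first experiment and the strain and age of the mice are not given in the sources used here. The labels do not say whether the libraries of a group came from separate mice or cultures, so p-values measure only the spread between libraries, which may be technical.

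MYC is a basic helix-loop-helix leucine zipper factor that binds DNA as a dimer with MAX, at E-box sequences, and raises genes of growth, ribosome assembly and metabolism. MXD1, MXD3, MXD4, MXI1 and MNT compete with MYC for MAX and for the same sites, and recruit the SIN3 and histone deacetylase co-repressor. MLX is a MAX-like partner of MondoA, the product of Mlxip, which senses glucose-derived metabolites and switches on Txnip, whose product restrains glucose uptake and binds thioredoxin. In T cells, Myc is induced on activation and sustained by IL-2 and amino acid supply, and it drives the metabolic change of blast cells.

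The promoter sequences below show which members carry the network's own binding letters, taken from RefSeq windows on GRCm38.p6 that run from 250 bases before to 50 bases after a start site. Of the members, 9 had such a window, 11 windows in all; Myc had none. The E-box CACGTG, which reads the same on both strands, stood in 4 of the 11 windows (Mxd4, Mnt, Mlx and Max) and in 7.15% of all 32851 windows. Max was the only gene here whose checked bases after the start were not found in an annotated transcript. Several of the 11 windows were those of Mxi1, and some of these overlapped. The carbohydrate response element, spelled as CACGNG, any 5 bases and CNCGNG and searched on both strands and able to contain the E-box letters, stood in the Txnip window alone among the members and in 0.365% of all windows. The first line gives the 250 bases before the Txnip start, with the element in capitals, beginning 85 bases before the start. The other lines give each E-box in capitals with 10 bases on either side, and Arrdc4, a relative of Txnip, is included because its values follow below. A match is a description of the letters and not evidence of binding.
Txnip, chr3:96557707-96557956, plus strand: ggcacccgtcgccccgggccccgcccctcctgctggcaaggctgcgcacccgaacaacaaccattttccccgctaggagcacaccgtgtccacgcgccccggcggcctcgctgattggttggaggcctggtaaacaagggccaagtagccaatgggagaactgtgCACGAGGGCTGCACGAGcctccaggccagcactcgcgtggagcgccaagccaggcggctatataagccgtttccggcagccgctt
Mxd4, chr5:34187914-34187939, minus strand: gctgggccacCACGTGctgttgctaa
Mnt, chr11:74830791-74830816, plus strand: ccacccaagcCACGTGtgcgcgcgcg
Mlx, chr11:101087240-101087265, plus strand: tgggttggatCACGTGactgagcctc
Max, chr12:76962236-76962261, minus strand: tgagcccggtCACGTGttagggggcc
Arrdc4, chr7:68749416-68749441, minus strand: aggtcctgtgCACGTGcactatggtg

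Recovered reads per library ran from 13222831 to 13469789 in the first experiment and from 16618750 to 17069569 in the second. Values are the authors' normalised read counts, in which reads are divided by a size factor per library. The library labels held for the targeted gene, since Trim28 was at 4262 and 4323 in the control and 415 and 458 in the knockout libraries. In the second experiment Trim28 rose with the antibody, from 5774 and 5920 to 7926 and 8528 (log2 fold change 0.49, adjusted p = 1.01e-07). Il2 itself fell in the knockout (log2 fold change -0.80) and was not called with the antibody (0.11, adjusted p = 0.0731). Il2ra, a receptor gene that IL-2 sustains, fell with the antibody from 44645 and 43661 to 22025 and 21937. The CD8 T cell markers Cd8a, Cd8b1, Cd3d, Cd3e, Cd3g and Trac were abundant everywhere, summing to between 25830 and 44221 per library, whereas Cd4 did not exceed 9.55. Summed levels were 4.92 to 17.5 for 5 erythroid markers and 87.3 to 357 for 7 myeloid markers, of which Cd68 made up most. The myeloid sum was lower in the knockout (146 and 158, against 254 and 300.1) and with the antibody (95.5 and 87.3, against 349 and 357). As Cd68 made up most of that sum, its changes are largely those of 1 gene and not a measure of myeloid cells. The part of such cells in the results was not tested. Genes linked to CD4 T cells other than Cd4 moved in both directions. Foxp3 read 4.06 and 5.07 in control and 43.3 and 49.0 in knockout libraries, and 58.2 and 50.5 in untreated and 8.59 and 9.59 in blocked ones. Cd40lg fell in the knockout (log2 fold change -2.95) and rose with the antibody (0.49), and Zbtb7b fell in both (-1.27 and -0.51). The B cell genes Cd79a and Cd79b were lower in the knockout, at 2.95 and 2.94 against 15.2 and 16.2 and at 5.91 and 4.90 against 18.3 and 20.3. With the antibody they read 3.82 and 8.63 against 4.16 and 7.21, and 42.0 and 37.4 against 35.3 and 25.7. The part of CD4 T cells and B cells in the results was not tested. The sum of 5 natural killer cell markers was higher in the knockout (243 and 268, against 184 and 159) and lower with the antibody (162 and 170, against 372 and 384). It was mostly Eomes, so its changes are those of 1 gene and not a measure of natural killer cells. Klrb1c and Klra4 did not exceed 14.55, and Ncr1 and Klra8 were at 0 in all 8 libraries. In bulk RNA, fewer cells of a type and less RNA per cell cannot be told apart.

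Myc, on chromosome 15 (61985391 to 61990374, plus strand), fell with IL-2 blockade and was not called in the knockout. In the knockout experiment it read 15441 and 15894 normalised counts in control cells and 15652 and 15298 in Trim28-/- cells. The 4 values overlapped, and the log2 fold change was -0.018 (SE 0.026, 95% interval -0.081 to 0.046, adjusted p = 0.575), so that a loss as large as that seen with the antibody lies outside the interval. Rescaling by the upper quartile moved the estimate to -0.087 and past the threshold (adjusted p = 0.0258). With IL-2 blocked, Myc fell from 35198 and 35265 to 19498 and 21057. Both blocked libraries lay far below both untreated ones, and the log2 fold change was -0.80 (SE 0.052, adjusted p = 1.24e-10), a 1.74-fold lower level. The difference between the knockout and the blockade effect was itself called, at 0.78 on the log2 scale (SE 0.058, adjusted p = 3.81e-07). Each manipulation had its own experiment and controls, and the activation time of the first is not given. In this and every later difference of effects, manipulation and experiment therefore cannot be told apart.

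Max, the shared dimer partner (chromosome 12, 76937269 to 76962201, minus strand), did not fall in either experiment. It stood at 1672 and 1716 in the control and at 2112 and 2028 in the knockout libraries. The knockout libraries were both higher, and Max rose with a change of 0.29 in log2 (SE 0.036, adjusted p = 0.000981). Under blockade the values were 2518 and 2672 before and 2682 and 2850.2 after, only just apart, with a log2 fold change of 0.092 (95% interval -0.023 to 0.21, adjusted p = 0.158). Without blocked replicate A the latter was 0.14 and passed (adjusted p = 0.00397). The difference between the effects was 0.20 (adjusted p = 0.0318). That call was lost without a filter (0.0633), with TMM (0.0534) or upper-quartile rescaling (0.0919), and without knockout replicate 1 (0.112), control replicate 1 (0.098), blocked replicate A (0.0735) or untreated replicate 2 (adjusted p = 0.143).

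**Figure D1:**
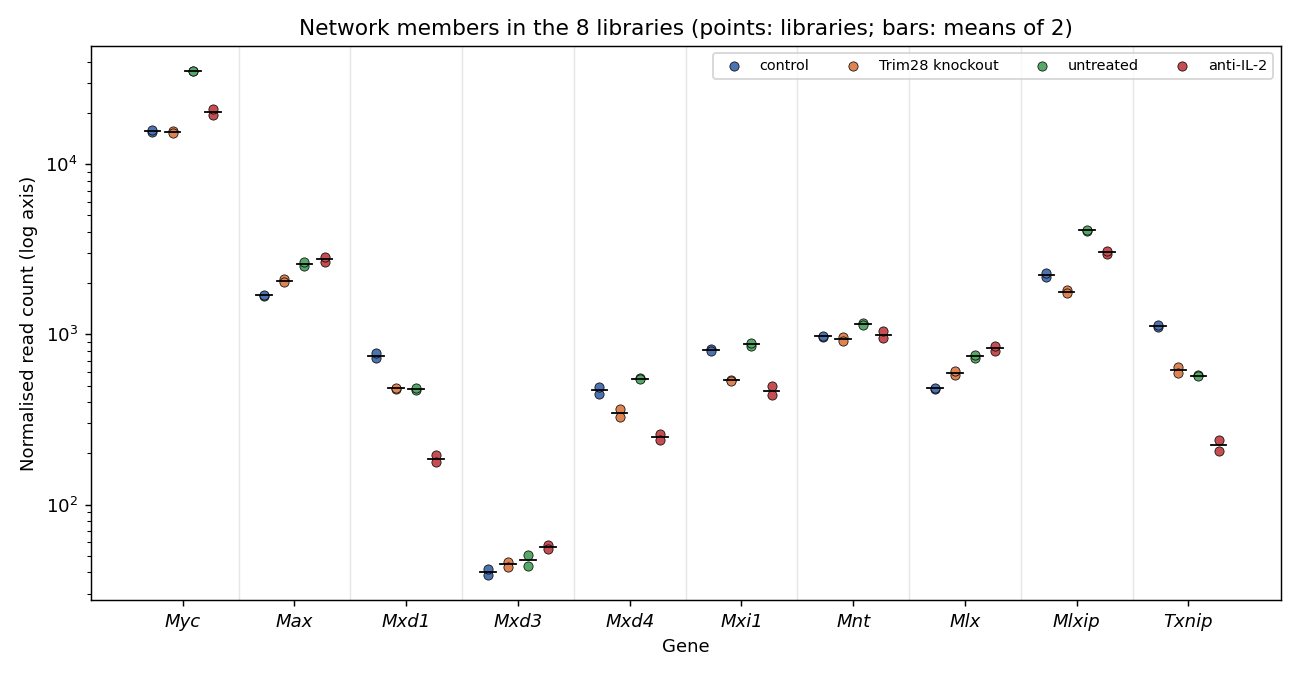
Normalised read count (log axis) of the 10 network genes in every library; points are libraries, bars the mean of the 2 libraries of a group, colours the 4 groups. Myc stood at 15298 to 15894 in both groups of the knockout experiment but at 19498 and 21057 with the antibody against 35198 and 35265 without it, and Mxd1, Mxd4, Mxi1 and Txnip were lower in both treated groups.

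Of the MXD-type repressor genes, 3 of 4 fell in both experiments, beside 18.1% of the 12428 genes tested in both that were called lower in both. Mxd1, a gene of differentiating cells (chromosome 6, 86647042 to 86669161, minus strand), went from 724 and 773 in the control to 479 and 486 in the knockout libraries, and from 471 and 482 to 196 and 177 with the antibody. Its log2 fold changes were -0.63 (SE 0.05, adjusted p = 0.000173) and -1.35 (SE 0.095, adjusted p = 3.88e-10). In each experiment the treated libraries lay below both references, and the blocked level was 2.55-fold lower.

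Mxi1, which encodes the relative of MXD1 also called MAD2 (chromosome 19, 53310518 to 53375810, plus strand), read 819.5 and 801 in the control and 539 and 535 in the knockout libraries. With blockade it went from 859 and 889 to 496 and 438. Again neither comparison had overlapping libraries, with log2 fold changes of -0.59 (SE 0.041, adjusted p = 0.000109) and -0.90 (SE 0.076, adjusted p = 5.59e-09).

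Mxd4 (chromosome 5, 34173883 to 34187720, minus strand), whose window holds the E-box printed above, read 447 and 491 in the control against 365 and 327 in the knockout libraries. It fell more with blockade, from 552 and 549 to 259 and 241. The log2 fold changes were -0.44 (SE 0.077, adjusted p = 0.0039) and -1.14 (SE 0.086, adjusted p = 1.14e-09). The knockout call was lost without knockout replicate 2, at -0.36 (adjusted p = 0.064), and without a filter on low values (adjusted p = 0.0525).

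Mxd3 (chromosome 13, 55325168 to 55329823, minus strand), which is tied to S phase in proliferating cells, was the exception among the repressor genes. It had the fewest reads of the members, with normalised counts of 38.5 and 41.6 in control against 46.3 and 43.1 in knockout libraries, and of 43.6 and 50.5 in untreated against 58.2 and 54.7 in blocked libraries. The libraries of each comparison were only just apart and neither change passed, with log2 fold changes of 0.16 (95% interval -0.17 to 0.48, adjusted p = 0.341) and 0.26 (95% interval -0.15 to 0.67, adjusted p = 0.267). Its exons overlap those of Prelid1 on the other strand, a gene read at 3702 to 5627, and whether the counting used strand is not given in the sources used here. At 38 to 61 reads per library, small changes of Mxd3 were not detectable at this depth.

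Mxd1 and Mxd4 fell more in the blockade experiment than in the knockout experiment, a contrast in which manipulation and experiment cannot be told apart. The knockout effect minus the blockade effect was 0.72 for Mxd1 (SE 0.10, adjusted p = 0.000106) and 0.70 for Mxd4 (SE 0.11, adjusted p = 0.000298). For Mxi1 it was 0.31 (SE 0.091, adjusted p = 0.0157), a call lost without control replicate 2 (0.0505) and without untreated replicate 2 (adjusted p = 0.06).

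Mnt, the gene of the broadly expressed repressor of this network (chromosome 11, 74830920 to 74845725, plus strand), stayed near its reference level. Its values were 972 and 975 in the control and 961 and 914 in the knockout libraries, a log2 fold change of -0.055 (95% interval -0.16 to 0.047, adjusted p = 0.289) that passed only after upper-quartile rescaling (-0.12, adjusted p = 0.0374). With blockade it went from 1164 and 1129 to 951 and 1042, a decrease of -0.20 on the log2 scale (SE 0.065, adjusted p = 0.0113). This was the weakest of the called decreases, and it did not pass without a filter (0.0982), without untreated replicate 1 (0.129) or without untreated replicate 2 (adjusted p = 0.0529). The authors' deposited table gives Mnt an adjusted p of 0.0871.

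Mlxip, the gene of MondoA (chromosome 5, 123394798 to 123457932, plus strand), and Mlx, the gene of its partner (chromosome 11, 101087277 to 101092207, plus strand), went apart in the knockout. Mlxip fell from 2171 and 2306 to 1825 and 1748, a change of -0.32 in log2 (SE 0.043, adjusted p = 0.00124). Mlx rose from 479.8 and 485 to 574 and 614, a change of 0.30 in log2 (SE 0.051, adjusted p = 0.00351), though DESeq2 on recovered reads did not call it (0.27, adjusted p = 0.0919). The authors' own DESeq2 fit gave Mlx an adjusted p of 0.0163 in the knockout. Neither gene had overlapping libraries.

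With the antibody, Mlxip fell from 4077 and 4119.5 to 2979 and 3112, a change of -0.43 in log2 (SE 0.051, adjusted p = 6.13e-07). Mlx read 732 and 760.1 untreated and 801 and 854 blocked, at 0.15 on the log2 scale (95% interval 0.0066 to 0.29, before adjustment), and missed the threshold (adjusted p = 0.066). It passed when all 8 libraries were fitted together (0.15, adjusted p = 0.0439) and without blocked replicate A (0.20, adjusted p = 0.00919). The exons of Mlx overlap those of Psmc3ip on the other strand, which rose from 91.3 and 68.9 to 157 and 156 in the knockout and from 112 and 127 to 297 and 283 with the antibody. The part of Psmc3ip reads in the Mlx values was not tested. The knockout and blockade effects were not shown to differ for Mlxip (difference 0.10, adjusted p = 0.211) or Mlx (0.15, adjusted p = 0.179).

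Txnip, whose promoter holds the carbohydrate response element printed above (chromosome 3, 96557957 to 96561883, plus strand), fell in both experiments, the most of any member in the knockout and about as much as Mxd1 with blockade. It read 1109 and 1140.4 in the control and 647 and 594 in the knockout libraries, a change of -0.86 in log2 (SE 0.053, adjusted p = 7.28e-05). With the antibody it went from 578 and 567 to 241 and 205, a change of -1.36 in log2 (SE 0.094, adjusted p = 2.82e-10). Treated libraries lay well below their references each time, 1.81-fold lower in the knockout and 2.57-fold lower with blockade, and the effects differed by 0.50 (SE 0.11, adjusted p = 0.0026). The antisense transcript Gm15441, which overlaps Txnip exons, did not exceed 7.27 in any library.

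The genes around TXNIP moved in both directions. Arrdc4, a relative of Txnip among the alpha-arrestin genes and a further MondoA target, fell from 105 and 100.4 to 66.0 and 52.0 in the knockout (log2 fold change -0.80, adjusted p = 0.00364) and from 186 and 184 to 40.1 and 34.5 with the antibody (-2.28, SE 0.16, adjusted p = 3.99e-10). Slc2a3, a glucose transporter gene, fell from 4947 and 5269 to 1819 and 1826 in the knockout (log2 fold change -1.49) and from 3343 and 3541 to 860.1 and 807 with the antibody (log2 fold change -2.04). Arrdc3, another alpha-arrestin gene, fell as well (log2 fold changes -0.43 and -0.54), while Arrdc1 rose in the knockout (0.50) and did not pass with blockade (-0.066, adjusted p = 0.396). Slc2a1, the other main glucose transporter gene, and Arrdc2 passed in neither experiment, with log2 fold changes of 0.064 and 0.082 for Slc2a1 and of 0.020 and 0.14 for Arrdc2.

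Thioredoxin genes, tied to the redox system that TXNIP restrains, were called higher or not called. Txn1 was at 0.076 (adjusted p = 0.256) in the knockout and rose by 0.13 with the antibody (adjusted p = 0.0331). Txn2, the mitochondrial form, rose by 0.30 and 0.17, and the reductase gene Txnrd1 was at -0.092 in the knockout (adjusted p = 0.063) and rose by 0.57 with the antibody (SE 0.06, adjusted p = 1.23e-07), all as log2 fold changes. In all, 2 of these 9 genes rose and 3 fell in the knockout, with a median log2 fold change of 0.020. Among all genes tested there, 32.9% were called higher and 28.2% lower, with a median of 0.031. With blockade 3 rose and 3 fell (median 0.082), beside 31.4% and 28.9% of all tested genes (median 0.018). The number that rose was 1 without knockout replicate 1, without knockout replicate 2, and, under blockade, without untreated replicate 1 or untreated replicate 2, without a filter and with DESeq2.

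**Figure D2:**
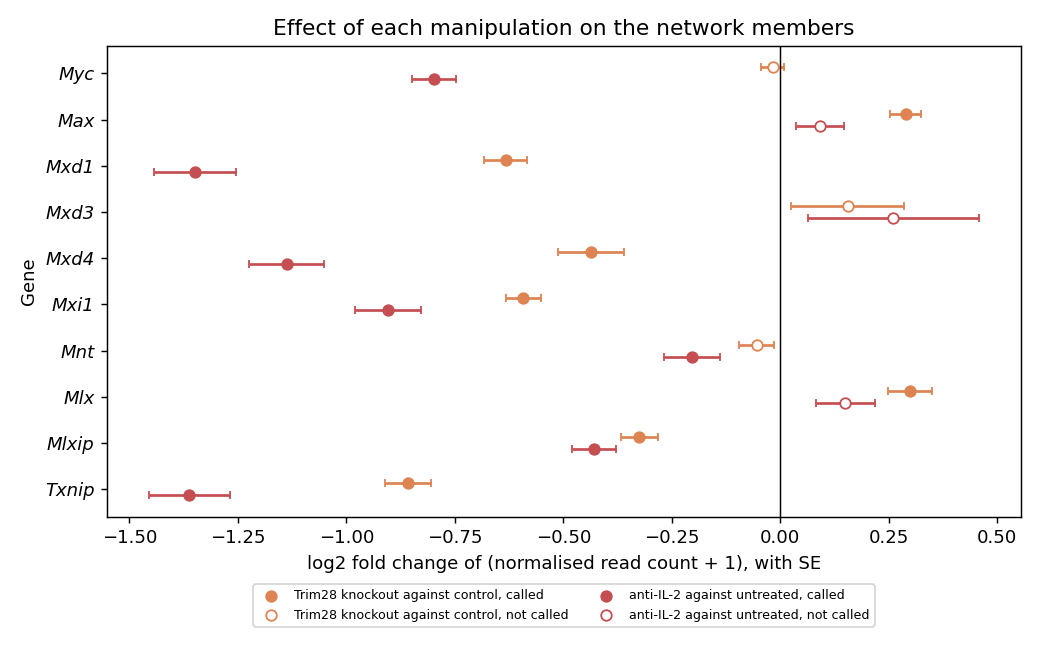
Log2 fold change with its standard error for each member in the knockout (orange) and under IL-2 blockade (red); filled points passed the adjusted threshold of 0.05 and open points did not. Txnip, Mxd1, Mxi1, Mxd4 and Mlxip lay below 0 in both comparisons, while Myc was at -0.018 in the knockout and -0.80 with the antibody.

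Across the members, 7 of 10 were called in the knockout, 2 higher and 5 lower, where 61% of the 15415 tested genes were called, 32.9% higher and 28.2% lower. With blockade 7 of 10 were called, where 60.3% of 13978 tested genes were. All 7 were lower, against 28.9% of tested genes, and 0 were higher, against 31.4%. At an unadjusted limma p under 0.05 the number higher was 1 (Mlx), and edgeR and DESeq2 called 0 higher. The median log2 fold change of the members was -0.19 in the knockout and -0.61 with the antibody, beside 0.031 and 0.018 over all tested genes. The total share called was thus near the background in both experiments. All 10 members passed the filter on low values in both experiments. Libraries did not overlap for 9 of 10 members in the knockout and 10 of 10 with blockade, beside 82.3% and 79.3% of all tested genes. In the knockout 6 of these lay lower and 3 higher, beside 38.9% and 43.4% of tested genes, and with blockade 7 lower and 3 higher, beside 38.2% and 41.1%.

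Mxd1, Mxd4, Mxi1, Mlxip and Txnip, 5 of 10 members, were called lower in both experiments, as were 18.1% of the 12428 genes tested in both. For 6 of 10 members the difference of the effects was called, beside 41.7% of genes. It was always toward the larger decrease or smaller increase with the antibody, a direction called for 24.7% of the 12428 genes, with 17% in the other. In the other direction 0 members were called, also at an unadjusted limma p under 0.05 and by edgeR. These 6 were Myc, Max, Mxd1, Mxd4, Mxi1 and Txnip. The other 4, Mnt, Mlx, Mlxip and Mxd3, were not called, with differences of 0.15, 0.15, 0.10 and -0.11.

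Compared per length, Myc was far above the rest of the network in every group. Levels are given here as reads per kilobase of annotated exon scaled to the recovered reads of the library (RPKM), and depend on the exons counted for each gene. In control libraries Myc was at 423 and 436, Max at 34.6 and 35.6, Txnip at 26.4 and 27.2, Mlxip at 19.4 and 20.7, Mlx at 17.9 and 18.1 and Mnt at 15.6 and 15.7. Mxi1 (8.93 and 8.76), Mxd1 (7.62 and 8.16), Mxd4 (3.92 and 4.31) and Mxd3 (1.21 and 1.31) followed. No neighbours in this order overlapped between libraries. In the knockout Txnip dropped to the sixth place, where its levels of 15.7 and 14.4 overlapped those of Mnt at 15.7 and 15.0.

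Untreated cells of the second experiment had Myc at 748 and 758 and Max at 40.4 and 43.4 on this per-length scale, with Mxd1 at 3.85 and 3.98. With the antibody Myc was at 441 and 473 and Max at 45.8 and 48.4. Txnip (4.73 and 4.01) then overlapped Mxi1 (4.47 and 3.92), and Mxd1 (1.70 and 1.53) came below Mxd4 (1.87 and 1.73). Myc of untreated cells thus stood above that of the control cells, but the experiments were normalised separately and differ in more than the treatment, so this was not compared.

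Ratios of per-length levels within a library do not depend on how libraries were scaled, and are given as a description with no test. The Myc to Max ratio was 12.2 and 12.3 in control and 9.81 and 9.99 in knockout libraries. It was 18.5 and 17.5 in untreated and 9.63 and 9.78 in blocked libraries. The ratio of Myc to the summed level of Mxd1, Mxd3, Mxd4 and Mxi1 was higher in the knockout, at 27.5 and 27.6 against 19.5 and 19.4. Under blockade it was 46.1 and 55.1 against 46.9 and 45.6 untreated, so that these libraries overlapped although Myc itself had fallen. Max to summed MXD genes was higher in both treated groups, at 2.81 and 2.76 against 1.59 and 1.58, and at 4.79 and 5.63 against 2.54 and 2.61.

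**Figure D3:**
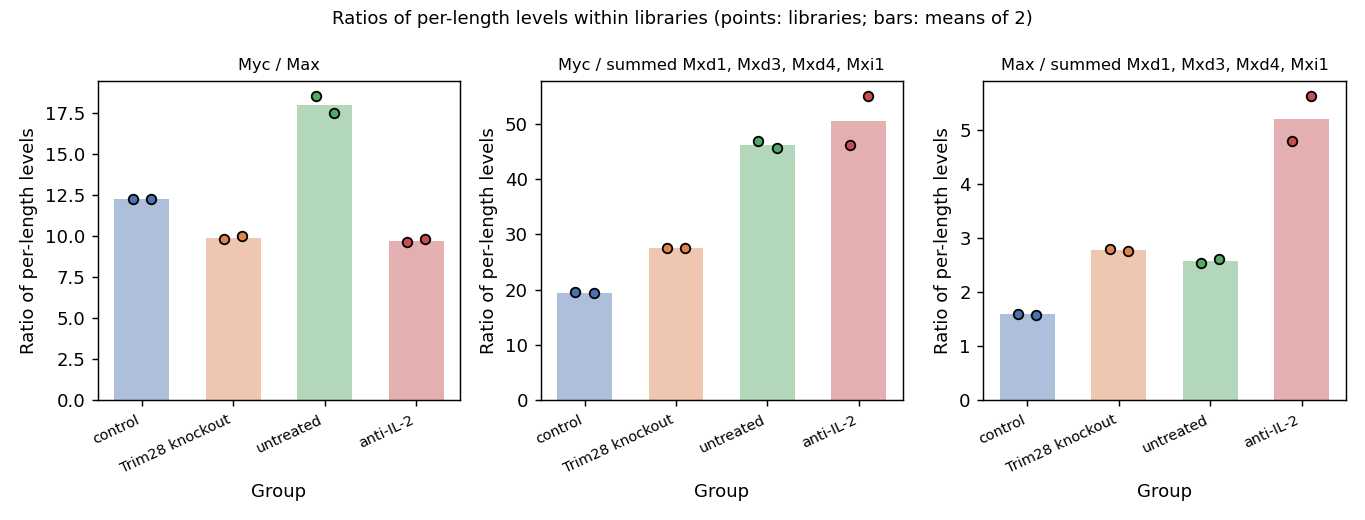
Ratios of per-length levels within each library (points) with the mean of the 2 libraries (bars), for Myc to Max, Myc to the summed Mxd1, Mxd3, Mxd4 and Mxi1, and Max to that sum. Myc to Max was lower in both treated groups, whereas Myc to the summed repressor genes was 27.5 and 27.6 in knockout against 19.5 and 19.4 in control libraries and overlapped between untreated and blocked libraries.

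Among other E-box factors and MYC relatives, the knockout and blockade effects were called different for Mga and Tfap4, and not for Mycn, Usf1 or Usf2. Mga, the gene of a large MAX-binding repressor, fell in the knockout from 1961 and 2014 to 1429 and 1303 (log2 fold change -0.54, SE 0.051, adjusted p = 0.000332) but not with the antibody, where it read 2936 and 2939 untreated and 3071 and 2805 blocked (-0.0013, adjusted p = 0.986). That difference was called (-0.54, adjusted p = 0.000115), opposite in sign to that of Myc. Tfap4, which is known as a MYC target that prolongs the growth of activated CD8+ T cells, rose in both, from 166 and 165 to 423 and 424 in the knockout (log2 fold change 1.35, SE 0.055) and from 469.8 and 448 to 760 and 830 with the antibody (0.79, SE 0.075). Mycn was low, at 21.3 and 27.4 in control and 7.88 and 9.80 in knockout, and at 17.7 and 13.4 in untreated and 2.86 and 4.80 in blocked libraries, with fitted log2 fold changes of -1.36 and -1.79. Mycn passed the filter on low values through the reference libraries alone, so it could only have been called lower, and its call is no support for a direction. Usf1, another E-box factor gene, fell in the knockout (-0.20, adjusted p = 0.019) and was at -0.078 with blockade, while Usf2 rose in the knockout (0.43) and missed the threshold with blockade (0.18, adjusted p = 0.0504). Mycl and Mlxipl did not exceed 8.11 and were not tested. Of 5 tested genes 2 were called higher and 3 lower in the knockout, and 1 higher and 1 lower with blockade, Mycn being among the lower each time. Among all tested genes 32.9% were called higher and 28.2% lower in the knockout, and 31.4% and 28.9% with blockade. The medians of the 5 genes were -0.20 and -0.0013, beside 0.031 and 0.018 for all tested genes. Mycn missed the filter and was not tested when 1 reference library was left out, so such counts do not check its call. The number that fell in the knockout was 1 without control replicate 1, without control replicate 2 and with DESeq2. Under blockade 2 rose with a pseudocount of 8, with a filter on a mean value of at least 100, and in the fit of all 8 libraries. With that filter, which Mycn did not pass, 0 fell under blockade. The counts under blockade also changed when some single libraries were left out.

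The co-repressor used by the MXD proteins and MNT was mostly higher, in contrast to the MXD genes themselves. Of 11 SIN3 complex and co-repressor genes, 8 rose and 2 fell in the knockout (median log2 fold change 0.23) and 7 rose and 1 fell with the antibody (0.29). Over all tested genes 32.9% were called higher and 28.2% lower in the knockout, and 31.4% and 28.9% with the antibody, with medians of 0.031 and 0.018, and the lists that follow have the same background. The histone-binding subunit gene Rbbp4 rose by 0.44 and 0.68, its relative Rbbp7 by 0.32 and 0.54, the deacetylase gene Hdac1 by 0.36 and 0.55 and the scaffold gene Sin3a by 0.39 and 0.56, as log2 fold changes. The other scaffold gene, Sin3b, fell in both (-0.27 and -0.36). In the knockout the count that rose was 4 without knockout replicate 1, 5 without knockout replicate 2 and 5 with DESeq2, and the count that fell was 1 without knockout replicate 2, with DESeq2 and without a filter.

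Of 20 genes for MYC cofactors and for factors that control MYC turnover, 13 rose and 4 fell in the knockout (median log2 fold change 0.30) and 10 rose and 4 fell with blockade (0.15), beside 32.9% and 31.4% of all tested genes called higher. Without untreated replicate 1 or untreated replicate 2 the latter 4 became 2. Set, Ruvbl2 and Ruvbl1, genes of a phosphatase inhibitor and of 2 helicases found with MYC, rose in both, by 0.57 and 0.58, 0.74 and 0.48, and 0.48 and 0.35. The acetyltransferase gene Kat2a rose by 0.68 and 0.37, and Skp2, the gene of a ubiquitin ligase subunit, by 0.59 and 0.60. Usp28, whose product removes ubiquitin from MYC, read 203 and 208 in control and 222 and 194 in knockout libraries (log2 fold change 0.014, adjusted p = 0.892). With the antibody Usp28 rose from 164 and 156 to 387 and 382 (1.26, SE 0.099, adjusted p = 2.15e-09), and this difference between the experiments was called (adjusted p = 7.54e-06). Fbxw7, which encodes the ubiquitin ligase subunit that USP28 opposes, fell in both (-0.25 and -0.34).

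Genes that MYC is known to activate were more often higher than lower in both experiments, including the experiment in which Myc fell. Of 34 such genes, 24 rose and 7 fell in the knockout (median log2 fold change 0.31), and 18 rose and 4 fell with the antibody (0.14), while the medians of all tested genes were 0.031 and 0.018. The count that fell became 3 without knockout replicate 1 and 4 without knockout replicate 2, and under blockade 7 without blocked replicate A and 2 without untreated replicate 1 or untreated replicate 2. Cad, the gene of the first enzymes of pyrimidine synthesis, rose from 1171 and 1233 to 2983 and 2872 in the knockout (log2 fold change 1.28, SE 0.04) and from 3284 and 3445 to 6369 and 6749 with the antibody (0.96, SE 0.052). Pa2g4, a growth regulator gene, rose by 0.62 and 0.41, the serine-glycine enzyme gene Shmt2 by 0.73 and 0.45, and the cyclin-dependent kinase gene Cdk4 by 0.70 and 0.72. Hspd1, a mitochondrial chaperonin gene, rose by 0.27 and 0.71, and Ptma, the prothymosin alpha gene, by 0.38 and 0.65. The glutamine transporter gene Slc1a5 fell in both, by -0.80 and -0.20 on the log2 scale. The larger decreases of this list with the antibody were those of Pkm, the pyruvate kinase gene, and Ccnd2, the cyclin D2 gene. Pkm went from 25609.9 and 25074 to 16224 and 17761 (log2 fold change -0.58, SE 0.053), and was at -0.11 in the knockout (adjusted p = 0.00841). Ccnd2 went from 31617 and 32129 to 21702 and 21752 (-0.55, SE 0.049), while it rose by 0.11 in the knockout.

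Genes that MYC is known to repress were mostly lower, in the same direction in both experiments. Of 9 tested genes 1 rose and 7 fell in each, with median log2 fold changes of -0.66 in the knockout and -0.93 with the antibody, beside 28.2% and 28.9% of all tested genes called lower. Cdkn1a, a cell cycle inhibitor gene, went from 4606 and 4694 to 1270 and 1482 with the antibody (-1.76, SE 0.064) and by a like amount in the knockout (-1.73; difference 0.031, adjusted p = 0.793). Ndrg1, a stress-induced differentiation gene, fell from 12068 and 12097 to 7681 and 7658 in the knockout (-0.66) and from 6291 and 6109 to 1245 and 1289 with the antibody (-2.29). The anti-proliferative gene Btg1 fell by -0.76 and -1.42, and Klf4, a quiescence factor gene, by -0.89 and -1.41. The inhibitor gene Cdkn2c rose in both (0.53 and 1.20). That rise did not pass in the knockout with DESeq2. With a filter on a mean value of at least 100, which Cdkn2c did not pass, 0 genes of this list rose in either experiment. The number that rose under blockade was 2 in the fit of all 8 libraries. Such counts also changed in both experiments when some single libraries were left out.

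**Figure D4:**
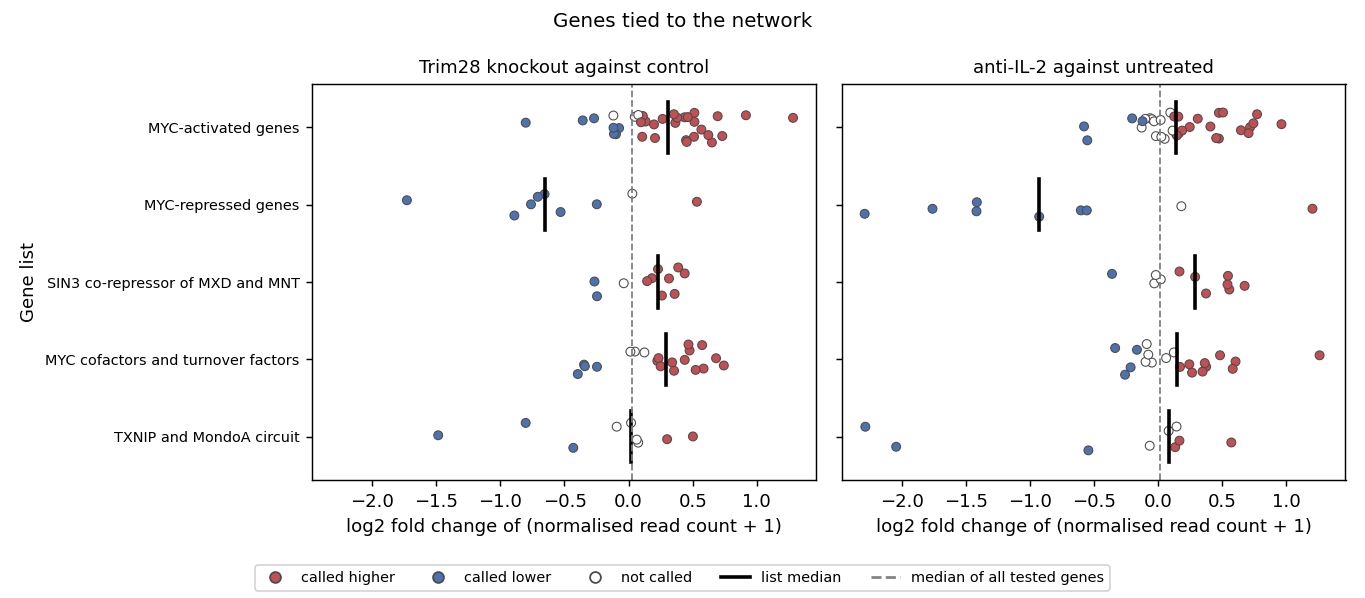
Log2 fold change of each tested gene (points, red for called higher, blue for called lower, white for not called) in 5 lists tied to the network, in the knockout (left) and under IL-2 blockade (right), with the list median (black bar) and the median of all tested genes (dashed line). Genes that MYC is known to activate had medians of 0.31 and 0.14, and genes it is known to repress had medians of -0.66 and -0.93.

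The genes whose pattern over the 8 libraries lay nearest to a member's were found among 8641 others by the root mean square distance of log2 values, after each experiment's mean was removed. Nearest to Myc were Dtx3 (distance 0.021), Plekha2 (0.035) and Kdm5b (0.036), each near 0 in the knockout and at -0.80, -0.86 and -0.83 with blockade. Nearest to Max were Arfrp1 (0.023), Cdc37 (0.027) and Kdm2b (0.028). Wls (0.029), Itgav (0.046) and Gm8369 (0.052) were nearest to Mxd1, and Ppp2r3a (0.049), Irgm2 (0.058) and Fndc3a (0.059) to Txnip. With 4 groups many genes can share such a pattern.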

How the data were processed

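PolyA RNA sequencing of 8 libraries was examined. The tools named per the submitters' processing notes are DESeq2, StringTie 2.1.4, HISAT2 2.2.1 and Trim Galore 0.4.4, with build mm10; the read counter, its use of strand and the annotation are not given in the sources used here. The deposited signal is read counts divided by a size factor per library, and 100% of values came out as whole reads within 0.001 once each library was divided by the value of 1 read. The authors' deposited log2 fold changes, test scores and p-values (DESeq2, coded reference over treated) were used only where named.

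Genes reaching 10 in 2 or more libraries of an experiment were compared on log2 (value + 1), a scale that understates changes of low genes, with the moderated test of limma 3.58.1 (trend option) in R 4.3.3, each experiment alone; the difference of effects came from a fit of all 8 libraries. Adjusted p-values are Benjamini-Hochberg over all tested genes, and 0.05 was the threshold for a call. Alternatives included edgeR 4.0.16 and DESeq2 1.42.0 on the recovered reads. The fits were tested on simulated data for both comparisons and the difference. Those data had a fixed spread and few changed genes, unlike the libraries here, so they do not check the error rate of these calls. The table of the first experiment has 24 names altered to dates, none of a member. Positions are from GENCODE M21 on GRCm38. Replicates of every group differed by more than sampling noise (chi-square per gene 1.32 to 3.87). Columns of the blocked libraries carry no number and are called A and B; the column name ending in r is that of B, and B was taken as a second library of the same treatment from the sample labels.

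The members and lists were chosen with earlier results of these data known. Named genes were all members, all genes of pathway lists of up to 9, up to 4 per comparison from each longer pathway list by smallest adjusted p, Trim28, Il2 and Il2ra as checks, and the nearest patterns; Sin3b, Fbxw7, Cdkn2c, Pkm, Ccnd2, the single cell type markers and the genes overlapping members' exons were chosen after their values were seen. The summed level of B cell markers is not reported here.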

Additional observations from a re-analysis of the deposited data

How the results depend on the processing

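Every called member kept its direction in every alternative run, which were other pseudocounts, filters and scalings, edgeR, DESeq2, the fit of all 8 libraries and leaving out each library. The calls that were lost or gained for Mxd4, Mxi1, Mlx, Max, Mnt and Myc are given with those genes, except that the Mnt difference passed without blocked replicate B (0.21, adjusted p = 0.0272). Myc with blockade ranged from -0.85 to -0.74 and Txnip from -1.48 to -1.25, and both stayed called. DESeq2 on the recovered reads called 5506 genes in the knockout, 2846 higher and 2660 lower, against 9409, 5065 and 4344 by limma, and 1 member higher against 2; the cause was not tested. Leaving out 1 library gave 3336 to 4704 genes higher in the knockout; the lowest values were 3336 and 3361 without knockout replicate 1 or 2. With blockade, the number of members called higher was 1 in the fit of all 8 libraries and 0 to 2 when 1 library was left out (2 without blocked replicate A). No scaling moved the median of all genes by more than 0.1. With the replicate block, 9078 genes and the same number of members (2 higher and 5 lower) were called in the knockout. Same-numbered control and knockout libraries did not deviate together (r = 0.013 across 15415 genes, which are not independent), so the numbers were not taken as pairs. Eif4e, described below, did follow the library number. No paired analysis was possible for blockade because the blocked columns carry no replicate number. Depth limits Mxd3, and Mycl and Mlxipl were too low to test.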

Other observations

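Eif4e, the gene of the cap-binding translation factor and a known MYC target, varied within groups of the first experiment more than between them. It read 1340 and 2758 in the control libraries 1 and 2 and 1177 and 2665 in the knockout libraries 1 and 2. The low value thus lay in the same-numbered library of both groups, although such libraries did not deviate together across all 15415 tested genes. The second experiment held 2983 and 2982 untreated and 2865 and 2598 blocked. Pvt1, the noncoding gene beside Myc, rose in both experiments, with log2 fold changes of 0.34 (adjusted p = 0.0454) and 0.61 (adjusted p = 1.12e-05), although Myc rose in neither. The choice of both genes followed from their values.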
